A study of Homo sapiens with 54 samples.

Results

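The genes described here encode the ligand TRAIL (TNFSF10), its death receptor TNFRSF10B (DR5), the death receptors FAS and TNFRSF1A (TNF receptor 1), and the lymphotoxin-beta receptor LTBR. They were chosen by name, as every probe set that the platform annotation maps to 1 of 6 gene symbols. No probe set was picked by its response, but earlier results of these data were known when the genes were chosen. Probe sets were found for 5 of the 6 genes, and the other TRAIL receptor with a death domain, TNFRSF10A, was not analysed here. The 5 genes had 12 of the 22215 probe sets of the array, and all 12 passed the filter on low signal, which kept 13422 probe sets for 8105 genes.

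TRAIL is a membrane ligand of the TNF family that binds TNFRSF10A and TNFRSF10B on target cells. Those receptors and FAS carry a cytoplasmic death domain that recruits the adaptor FADD and caspase-8 and can start apoptosis, whereas TNFRSF1A recruits TRADD first and signals to NF-kB as well as to cell death. LTBR lacks a death domain and signals to NF-kB through TRAF proteins. In the intestinal epithelium interferon-gamma is known to sensitize cells to TNF and to FAS ligand.

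HT-29, a human colon adenocarcinoma cell line, was measured in 9 treatments with 3 times (4, 8 and 16 h) and 2 arrays per group, which gave 27 groups and 54 Affymetrix arrays. There were 3 treatments with TNF at 100 ng/ml, given together with EGF (100 ng/ml), together with insulin (500 ng/ml) or alone. A further 3 had TNF at 5 ng/ml, likewise together with EGF (1 ng/ml), together with insulin (5 ng/ml) or alone. The remaining cells received EGF alone (100 ng/ml), insulin alone (500 ng/ml) or no added factor and are called untreated. Every group, the untreated one included, had first been given 200 U/ml interferon-gamma for 24 h, so no value shows these genes without interferon. The series describes its replicates as biological duplicates, the number of arrays limits the precision of every value, and RNA from a whole culture cannot tell fewer cells expressing a gene from less RNA per cell.

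Signals are linear MAS5 values that the authors had scaled to a common mean, and the trimmed mean was 500.2 in every array. Median signals per array ran from 110.9 to 168.0. Across probe sets, log2 signals of the 2 arrays of a group correlated at 0.945 to 0.977. Of 10 markers of intestinal epithelium, 8 passed the filter, while CDX1 and CDX2, which did not, had median signals of 22 and 11.5. Of 5 leukocyte markers on the array 3 passed, LYZ, which intestinal epithelium also makes (median signal 6704), CD3E (131.7) and CD14 (89.4), while the defining marker PTPRC did not (21.1). Of 6 fibroblast and muscle markers 4 passed, COL1A1 with a median of 388, ACTA2 with 228, DCN with 179.6 and COL1A2 with 86.0. Of 4 endothelial markers only PECAM1 passed (147.7). Their part in the results was not tested. The 9 arrays of replicate 2 at 8 h had a median log2 ratio of 3′ to 5′ ACTB signal of 0.32, against −0.04 in the other 45 arrays. Among those 45, the arrays of replicate 2 at 16 h ran from 0.02 to 0.43, so a raised ratio was not confined to 8 h. The highest of the 45 was 0.63, with TNF 100 ng/ml and insulin at 16 h (replicate 1). The 9 arrays of replicate 2 at 8 h ran from 0.04 to 1.19. The 1.19 was that of TNF 100 ng/ml alone, followed by 0.98 with insulin alone, while untreated cells had 0.39. The 2 arrays of TNF 100 ng/ml at 8 h also had the lowest correlation of a group, 0.945. The ACTB ratio is higher where RNA is shortened, and its part in the results was not tested. Values without the 9 arrays of replicate 2 at 8 h are given where a call changes. The 16 h arrays of replicate 2 were not left out as a set.

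A pair of promoter stretches is printed because TNFSF10 moved most under TNF and TNFRSF1A, the receptor for TNF itself, did not pass the test, and because each lies wholly outside its gene's span in RefSeq. Each holds the 250 bases before the RefSeq transcription start in GRCh38.p14, in the direction of the gene, at chr3:172523431-172523680 (minus strand) for TNFSF10 and chr12:6342077-6342326 (minus strand) for TNFRSF1A. Capitals mark a match to the interferon-stimulated response element, searched on both strands as GAAA, any 2 bases and GAAA.
TNFSF10: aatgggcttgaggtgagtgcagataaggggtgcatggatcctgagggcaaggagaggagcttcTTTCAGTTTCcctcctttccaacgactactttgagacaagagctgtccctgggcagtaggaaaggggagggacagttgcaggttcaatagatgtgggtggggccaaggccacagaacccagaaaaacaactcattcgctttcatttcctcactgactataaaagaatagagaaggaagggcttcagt
TNFRSF1A: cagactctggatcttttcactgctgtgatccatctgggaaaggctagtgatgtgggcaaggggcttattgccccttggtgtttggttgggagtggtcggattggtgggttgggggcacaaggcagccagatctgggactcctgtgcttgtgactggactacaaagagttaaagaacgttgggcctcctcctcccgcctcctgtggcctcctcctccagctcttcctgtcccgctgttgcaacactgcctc
The TNFSF10 match began 187 bases before the start and read on the strand opposite to the gene. Such a match was present in 3.021% of the 35116 promoters of this length. Neither stretch matched the gamma-activated site, searched as TTCNNNGAA on both strands and found in 6.567% of promoters, or the NF-kB consensus, found in 9.961%. The TNFSF10 match was thus the only match in the printed stretches. Of 3 FAS starts in the table, the third had an NF-kB match 157 bases upstream that reads on both strands, and the single LTBR start had none of the 3 motifs. These matches describe letters in a window and were not tested for binding.

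In what follows a change averages the differences of the 3 times on the scale log2(signal + 12.49), which understates the change of weak probe sets. It is given ± its standard error, with n = 6 arrays for each treatment. A gene was called when the adjusted p of the limma F test over the 3 times was under 0.05, with Benjamini-Hochberg adjustment over all 13422 probe sets. Each gene is represented by its brightest probe set, and signals of different probe sets are not comparable as amounts of RNA. At a single time the test is limma's for that contrast alone, with n = 2 arrays per group. A fit with the replicate number as a block within each time was also run. Where it changed the call of a gene, the adjusted p of that fit is given as the block-adjusted p. The numbers paired arrays most clearly at 8 h, and the main tests used no block. Counts of matched arrays use these numbers at all 3 times, also where the pairing was weaker, and carry no test.

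With TNF at 100 ng/ml, 3 of the 5 genes rose against untreated cells: the ligand TNFSF10 and the death receptors TNFRSF10B and FAS. In the same comparison 6.69% of all probe sets were called higher and 16.3% were called in either direction. Of these calls 40.9% were higher, and 58.6% when arrays were centred on their medians. The median change was −0.08 over all probe sets and 0.76 over the 5 genes. TNFRSF1A and LTBR did not pass the test.

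TNFSF10, the TRAIL ligand (probe set 202688_at), read 10139.6 and 8836 at 4 h with TNF at 100 ng/ml, against 4254 and 4133 in untreated cells. At 8 h the signals were 8927 and 12465 with TNF, against 3126 and 3860.0 in untreated cells. At 16 h they were 11319 and 13524 with TNF, against 1628 and 1536 in untreated cells. The groups did not overlap at any time, and the gap was widest at 16 h. The mean change was 1.91 ± 0.095, a 3.76-fold higher signal, with an adjusted p of 7.03e-17, and TNFSF10 was higher in 6 of 6 arrays matched by time and replicate number. The differences at the 3 times were 1.17 (4 h, 2.25-fold), 1.60 (8 h, 3.03-fold) and 2.96 (16 h, 7.77-fold).

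The growth of that difference went with a fall in the untreated cells. Between 16 h and 4 h TNFSF10 fell by 1.40 ± 0.17 on the log2 scale in untreated cells (adjusted p = 3.03e-07), a comparison in which 9.59% of probe sets were called in either direction. The fall was −1.11 and not called with the probe set 214329_x_at (adjusted p = 0.313). Under TNF at 100 ng/ml the difference between 16 h and 4 h was 0.39 ± 0.17 and did not pass the test (adjusted p = 0.207).

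TNFRSF10B, the TRAIL receptor DR5 (probe set 209295_at), had its widest gap at the earliest time. At 4 h it read 1357 and 1366 with TNF at 100 ng/ml, against 373 and 376 in untreated cells. At 8 h the signals were 824 and 879.8 with TNF, against 483 and 440.5 in untreated cells, and at 16 h they were 1646 and 1619.8 with TNF, against 1069 and 1163 in untreated cells. No array with TNF fell below an untreated array of the same time. The mean change was 1.08 ± 0.11 (adjusted p = 2.55e-09), higher in 6 of 6 matched arrays. The difference was 1.83 at 4 h (3.55-fold), 0.87 at 8 h (1.82-fold) and 0.55 at 16 h (1.46-fold, adjusted p = 0.0543 for that time alone). This 16 h difference was called after quantile normalization (adjusted p = 0.0420), with only the groups compared (adjusted p = 0.0470) and with the replicate block (block-adjusted p = 0.0185).

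In untreated cells TNFRSF10B rose with time, by 1.54 ± 0.19 between 16 h and 4 h (adjusted p = 5.43e-07). The other probe sets of the gene gave 0.33 and 0.41 for that difference and were not called (adjusted p = 0.153 and 0.202). Under TNF at 100 ng/ml the level at 8 h was lower than at 4 h by a log2 difference of −0.67 ± 0.19, and the level at 16 h was higher than at 4 h by 0.26 ± 0.19. The F test over both differences was called (adjusted p = 0.000957), in a comparison where 22.2% of probe sets were called in either direction. Without the 8 h arrays it was not (adjusted p = 0.390), and the other probe sets gave −0.13 and −0.52 between 16 h and 4 h, neither called.

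FAS, the receptor for FAS ligand (probe set 204780_s_at), moved late. Its signals at 4 h were 1275 and 872 with TNF at 100 ng/ml, against 1007 and 989 in untreated cells. At 8 h they were 1965.5 and 1526 with TNF, against 1340.2 and 1088 in untreated cells, and at 16 h 2193 and 2467 with TNF, against 711 and 709 in untreated cells. The groups overlapped at 4 h, were apart at 8 h and were far apart at 16 h. The mean change was 0.76 ± 0.14 (adjusted p = 1.05e-05), with FAS higher in 5 of 6 matched arrays. By time it was 0.08 at 4 h, 0.52 at 8 h (adjusted p = 0.257 for that time alone, and 0.00733 with the probe set 204781_s_at) and 1.70 at 16 h (3.24-fold, adjusted p = 2.35e-06).

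Under TNF at 100 ng/ml FAS rose with time, by 1.13 ± 0.24 between 16 h and 4 h (adjusted p = 0.00179). The call was lost without replicate 2 of TNF 100 ng/ml at 4 h (0.86, adjusted p = 0.0736). In untreated cells the same difference was −0.48 ± 0.24 and did not pass the test (adjusted p = 0.0884, block-adjusted p = 0.00546).

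TNFRSF1A, the receptor that binds the added TNF (probe set 207643_s_at), read 1921 and 1090.5 at 4 h with TNF at 100 ng/ml, against 1108 and 1176 in untreated cells. At 8 h it read 2502 and 2565 with TNF, against 1825 and 1626 in untreated cells. At 16 h it read 2436 and 1670.0 with TNF, against 1902 and 2316 in untreated cells. The groups overlapped at 4 h and 16 h and were apart at 8 h. The change of 0.28 ± 0.16 did not pass the test (adjusted p = 0.396), and its 95% confidence interval ran from −0.04 to 0.60. Between 16 h and 4 h it was higher by 0.48 ± 0.27 under TNF (adjusted p = 0.0806, block-adjusted p = 0.0364) and by 0.87 ± 0.27 in untreated cells (adjusted p = 0.0835, block-adjusted p = 0.0321), and neither was called without the block. Without replicate 1 of TNF 100 ng/ml at 4 h the difference under TNF was 0.88 and was called (adjusted p = 0.0191).

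LTBR, the receptor for lymphotoxin heterotrimers and LIGHT (probe set 203005_at), read 672 and 1005 at 4 h with TNF at 100 ng/ml, against 809.7 and 653 in untreated cells. At 8 h the signals were 697 and 769 with TNF, against 713 and 644 in untreated cells. At 16 h they were 1236 and 960.4 with TNF, against 1322.5 and 997 in untreated cells. The groups overlapped at each time. The change was 0.07 ± 0.15 (adjusted p = 0.958), with a 95% confidence interval from −0.23 to 0.37. In untreated cells the level at 16 h was higher than at 4 h by 0.65 ± 0.26, which was not called (adjusted p = 0.0913). It was called after quantile normalization (0.68, adjusted p = 0.0472) and with the replicate block (block-adjusted p = 0.0185).

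**Figure D1:**
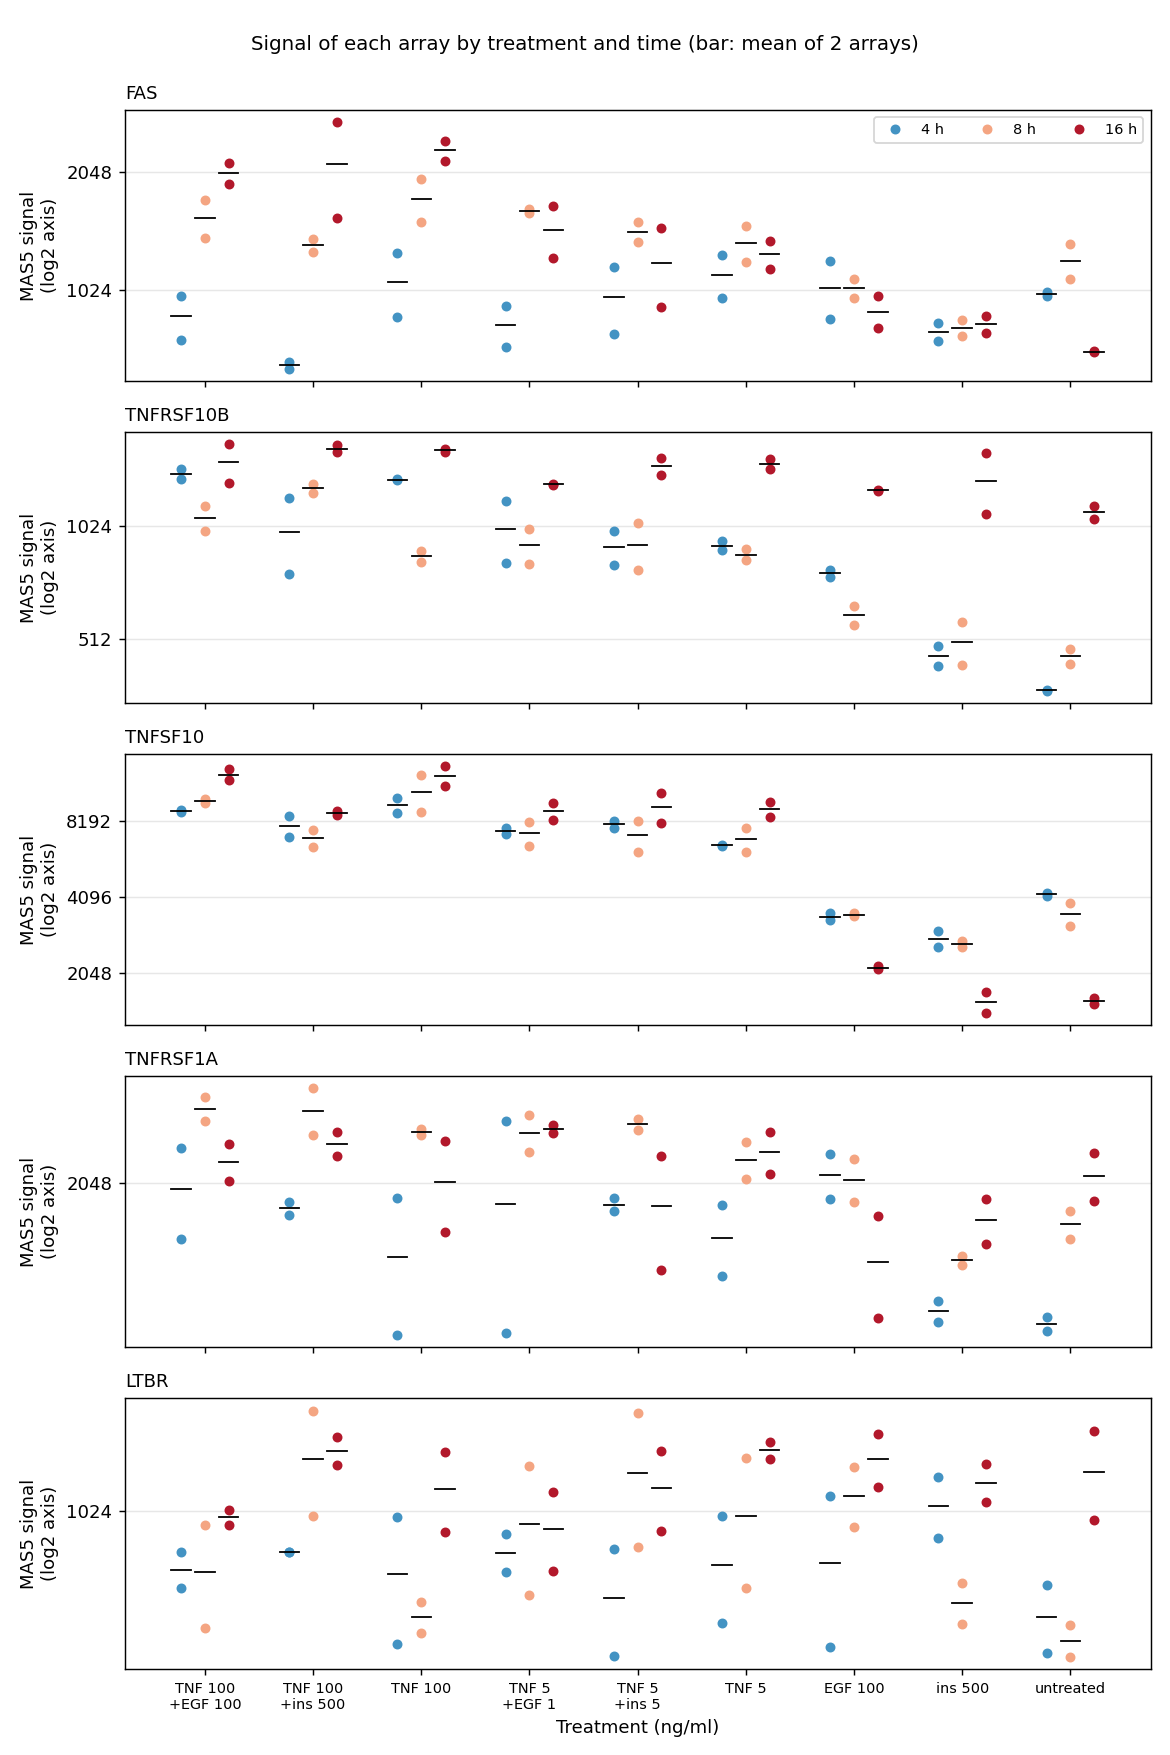
MAS5 signal of each array (points, log2 axis) for the 5 genes by treatment, with doses in ng/ml, and by time (colours); bars are the means of 2 arrays. The 36 arrays with TNF lie above the 18 without TNF for TNFSF10, while LTBR shows no such separation.

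The late or early timing of these responses was tested as the interaction of TNF at 100 ng/ml with time, in which 2.44% of probe sets were called in either direction. The TNF difference at 16 h was larger than at 4 h by 1.79 ± 0.23 for TNFSF10 (adjusted p = 7.76e-06) and by 1.62 ± 0.34 for FAS (adjusted p = 0.00859). For TNFRSF10B it was smaller, with a difference of −1.28 ± 0.27 (adjusted p = 0.00805). The other probe sets of TNFRSF10B gave −0.47 and −0.93, neither called (adjusted p = 0.745 and 0.682). The FAS interaction was not called without replicate 2 of TNF 100 ng/ml at 16 h (1.53, adjusted p = 0.0694), when arrays were centred on their medians (1.52, adjusted p = 0.0775) or with only the groups compared (adjusted p = 0.0550). The TNFSF10 interaction was not called with the probe set 214329_x_at (1.66, adjusted p = 0.455). TNFRSF1A and LTBR did not pass this test, with interactions of −0.40 and −0.25.

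Whether one receptor responded more than another was asked for 2 pairs, over the mean of the 3 times. The TNF change of FAS minus that of TNFRSF10B was −0.32, with a two-sided exact permutation p of 0.454 over 216 arrangements within times (n = 6 arrays each). The change of LTBR minus that of TNFRSF1A was −0.21 (exact permutation p = 0.417). The smallest p this design allows is 0.00926, and after adjustment over the 2 pairs both were 0.454. Whether FAS and TNFRSF10B differ from each other in timing was not tested.

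**Figure D2:**
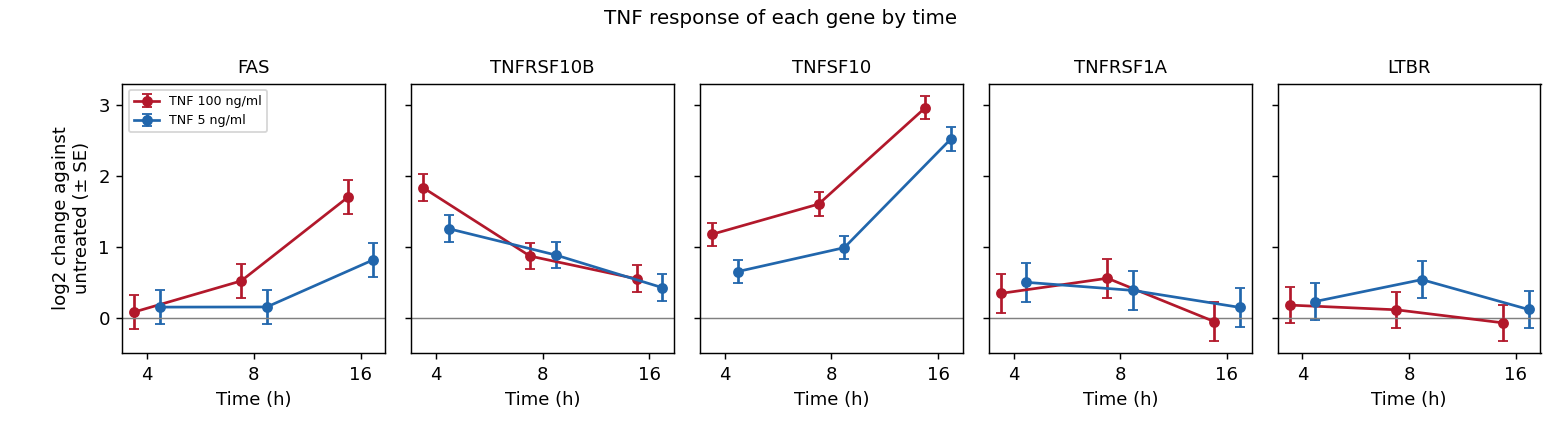
Log2 difference against untreated cells (± SE) at 4, 8 and 16 h for TNF at 100 ng/ml (red) and 5 ng/ml (blue). At 100 ng/ml TNFRSF10B is 1.83 higher at 4 h and 0.55 higher at 16 h, while TNFSF10 and FAS reach 2.96 and 1.70 at 16 h.

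With TNF at 5 ng/ml, 2 of the 5 genes rose against untreated cells, TNFSF10 and TNFRSF10B, where 4.26% of all probe sets were called higher. TNFSF10 read 6551 and 6596 at 4 h, 6162.5 and 7694 at 8 h and 8481 and 9801 at 16 h with the low dose. Each of these signals lay above every untreated array. The change was 1.38 ± 0.095 (adjusted p = 1.41e-13), with differences of 0.65, 0.98 and 2.52 at 4, 8 and 16 h. TNFRSF10B read 884 and 933 at 4 h, 833.5 and 889 at 8 h and 1544 and 1452 at 16 h. Its change was 0.85 ± 0.11 (adjusted p = 2.22e-06), with differences of 1.25, 0.88 and 0.42 at 4, 8 and 16 h. Both genes were higher in 6 of 6 matched arrays. So was TNFRSF1A, which was not called, and FAS and LTBR were higher in 5 of 6 each.

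FAS read 1258 and 972 at 4 h, 1489 and 1206 at 8 h and 1365 and 1158 at 16 h with TNF at 5 ng/ml. Both arrays lay above both untreated arrays at 16 h, and the groups overlapped at 4 h and 8 h. Its change over the 3 times was 0.37 ± 0.14 and was not called (adjusted p = 0.133). It was called with the replicate block (block-adjusted p = 0.00657, and adjusted p = 0.0111 for a block over all times), and the probe set 204781_s_at gave 0.49 and was called (adjusted p = 0.000955). At 16 h alone the difference of 0.81 ± 0.24 was called (adjusted p = 0.0388, where 2.87% of probe sets were called higher), and the call was lost without any 1 of the 4 arrays (adjusted p from 0.0980 to 0.256). The 16 h call of FAS was also lost with median centring (adjusted p = 0.119), without the filter on low signal (adjusted p = 0.0581) and without the intensity trend (adjusted p = 0.0526). TNFRSF1A and LTBR changed by 0.34 ± 0.16 and 0.29 ± 0.15 and were not called (adjusted p = 0.552 and 0.570).

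Between the 2 doses, TNFSF10 was the only 1 of the 5 genes called without the block, and it was higher at 100 ng/ml by 0.53 ± 0.095 than at 5 ng/ml (1.44-fold, adjusted p = 0.00966, 6 of 6 matched arrays). In this comparison 0.626% of probe sets were called higher. The call was lost without replicate 2 of TNF 100 ng/ml at 8 h (0.45, adjusted p = 0.0507), and the other probe sets of the gene gave 0.59 and 0.08, neither called (adjusted p = 0.132 and 1.00). FAS had a change of 0.39 ± 0.14 (adjusted p = 0.153, block-adjusted p = 0.00608), TNFRSF10B of 0.23 ± 0.11 (adjusted p = 0.437), LTBR of −0.22 ± 0.15 and TNFRSF1A of −0.06 ± 0.16.

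At single times the 2 doses gave these calls. At 4 h TNFSF10 and TNFRSF10B rose at either dose, where 2.7% of probe sets were called higher at 100 ng/ml and 1.64% at 5 ng/ml. The same 2 genes rose at 8 h, where 2.78% of probe sets were called higher at 100 ng/ml and 2.01% at 5 ng/ml. With the replicate number as a block the calls in either direction at 8 h were 1380 and 788 probe sets at the high and the low dose, against 755 and 390 without it, and the same 2 genes were called. Without the 9 arrays of replicate 2 at 8 h, which leaves 1 array per group there, TNFRSF10B was not called at that time for either dose (0.75 and 0.77, adjusted p = 0.232 and 0.314), whereas TNFSF10 was. The spread then comes from the 4 h and 16 h groups alone, and the lone arrays are assumed to vary like them. Leaving out replicate 2 of untreated cells at 8 h alone also ended the TNFRSF10B calls of 8 h (adjusted p = 0.0546 at 100 ng/ml and 0.0857 at 5 ng/ml), as did leaving out replicate 2 of TNF 5 ng/ml at 8 h for that dose (adjusted p = 0.0559). At 16 h TNFSF10 and FAS rose at either dose, where 5.47% of probe sets were called higher at 100 ng/ml and 2.87% at 5 ng/ml. Other probe sets did not all give these calls. At 16 h the FAS probe set 215719_x_at gave 0.86 at 5 ng/ml (adjusted p = 0.121). At 4 h the TNFRSF10B probe set 209294_x_at gave 0.97 at 100 ng/ml (adjusted p = 0.671) and 0.15 at 5 ng/ml (adjusted p = 0.985), and 210405_x_at gave 0.40 at 5 ng/ml (adjusted p = 0.893). The TNFSF10 probe set 214329_x_at gave 0.78 and 0.93 at 4 h (adjusted p = 0.583 and 0.636) and 1.21 and 1.11 at 8 h (adjusted p = 0.150 and 0.284) at the high and the low dose. At 8 h the TNFRSF10B probe set 210405_x_at gave 0.94 at 100 ng/ml (adjusted p = 0.0884) and 209294_x_at gave 1.90 at 5 ng/ml (adjusted p = 0.163). The 4 h call of TNFSF10 at 5 ng/ml (adjusted p = 0.0263) was lost without any 1 of its 4 arrays (adjusted p from 0.127 to 0.211).

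Probe sets of 1 gene were set side by side as a check on these values. Over the 27 group means the other 3 FAS probe sets correlated with the brightest at 0.86 to 0.92, the other TNFSF10 probe sets at 0.99 and 0.89, and those of TNFRSF10B at 0.73 and 0.71. With TNF at 100 ng/ml all 4 FAS probe sets were called higher against untreated cells, with changes from 0.62 to 0.83, and so were all 3 of TNFSF10, from 1.48 to 2.21. For TNFRSF10B the probe set 210405_x_at gave 0.83 (adjusted p = 0.0045) and 209294_x_at gave 1.26 with an adjusted p of 0.0506. Probe set 209294_x_at read 431 and 20.4 in untreated cells at 8 h, so its replicate 2 there stood far below replicate 1. That array had a log2 ACTB ratio of 0.39, and the part of this in its signal was not tested.

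**Figure D3:**
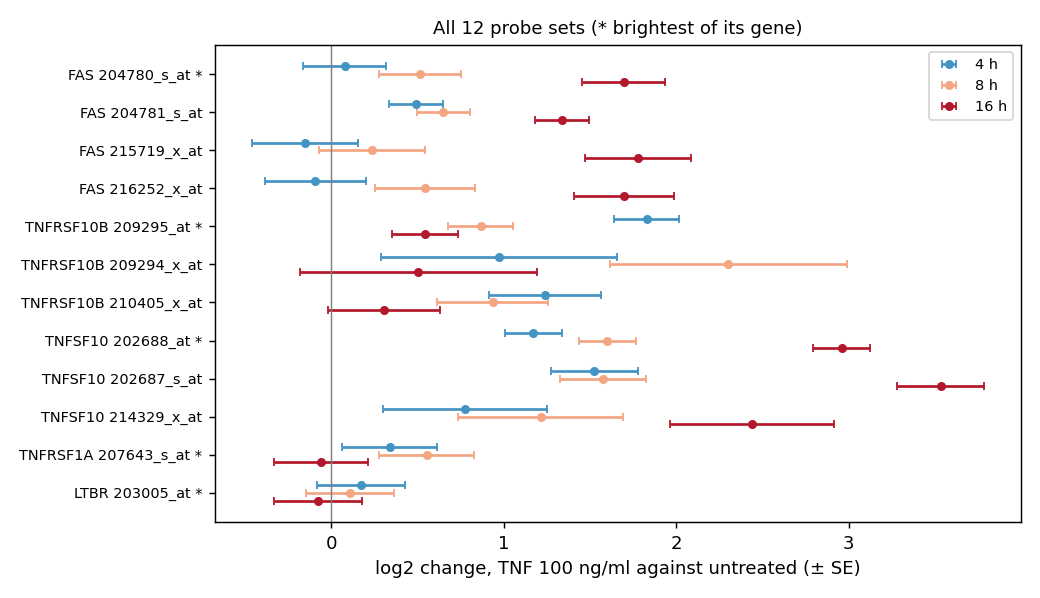
Log2 difference between TNF at 100 ng/ml and untreated cells (± SE) for all 12 probe sets, by time; a star marks the brightest probe set of a gene. The FAS and TNFSF10 probe sets share the widest gap at 16 h, while those of TNFRSF10B disagree on whether 4 h or 8 h is widest.

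EGF at 100 ng/ml alone raised 1 of the 5 genes against untreated cells, TNFRSF10B, where 0.529% of all probe sets were called higher. TNFRSF10B read 752.5 and 782 at 4 h with EGF, against 373 and 376 in untreated cells. At 8 h it read 558 and 627 with EGF, against 483 and 440.5 in untreated cells, and at 16 h 1282 and 1272 with EGF, against 1069 and 1163 in untreated cells. The groups did not overlap at any time, and the gap was widest at 4 h. The change was 0.52 ± 0.11 (adjusted p = 0.0108, 6 of 6 matched arrays), with 1.01 at 4 h (2.01-fold), 0.35 at 8 h and 0.19 at 16 h. This call was lost without any 1 of the 4 arrays of 4 h (adjusted p from 0.0730 to 0.105), after median centring (adjusted p = 0.0544), and with either other probe set (0.65 and 0.45, adjusted p = 0.910 and 0.768).

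The other 4 genes did not pass the test with EGF alone. With an unadjusted p of the F test under 0.05 there were 3 of the 5 genes, TNFRSF10B among them. LTBR had a change of 0.31 ± 0.15 (adjusted p = 0.961), TNFRSF1A of 0.20 ± 0.16 (adjusted p = 0.318), FAS of 0.05 ± 0.14 and TNFSF10 of 0.05 ± 0.095. For TNFSF10 the 95% confidence interval of the mean change ran from −0.15 to 0.24. The means of TNFRSF1A and TNFSF10 join opposite directions. TNFRSF1A read 1918 and 2313 with EGF at 4 h, against 1108 and 1176 in untreated cells, and was also above them at 8 h. At 16 h it read 1787 and 1170 with EGF, against 1902 and 2316. TNFSF10 read 3527 and 3305 with EGF at 4 h, against 4254 and 4133, and the groups overlapped at 8 h. At 16 h it read 2108 and 2170 with EGF, against 1628 and 1536.

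Insulin at 500 ng/ml alone gave 0 calls by limma among the 5 genes, where 0.231% of probe sets were called in either direction, and 1 gene, TNFSF10, had an unadjusted p under 0.05. TNFSF10 read 2984 and 2592 at 4 h with insulin, against 4254 and 4133 in untreated cells. At 8 h it read 2735.5 and 2579 with insulin, against 3126 and 3860.0 in untreated cells, and at 16 h 1415 and 1716 with insulin, against 1628 and 1536 in untreated cells. Insulin arrays lay below untreated arrays at 4 h and 8 h and overlapped them at 16 h. The change of −0.33 ± 0.095 was not called (adjusted p = 0.248), but it was called after quantile normalization (−0.35, adjusted p = 0.0164) and with the replicate block (block-adjusted p = 0.0138). The other 4 genes had changes between −0.22 for FAS and 0.22 for TNFRSF10B.

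Adding EGF at 100 ng/ml to TNF at 100 ng/ml gave 0 calls by limma among the 5 genes against TNF alone, and 0 genes had an unadjusted p under 0.05. In this comparison 0.224% of probe sets were called in either direction. FAS read 988 and 761 at 4 h, 1734 and 1391 at 8 h and 2169 and 1911 at 16 h with both factors. It was lower than with TNF alone in 6 of 6 matched arrays, with a change of −0.21 ± 0.14 that did not pass the test (adjusted p = 1.00). TNFSF10 had a change of −0.05 ± 0.095 and TNFRSF10B of 0.09 ± 0.11.

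Insulin at 500 ng/ml added to TNF at 100 ng/ml also gave 0 calls by limma among the 5 genes against TNF alone, where 0.499% of probe sets were called in either direction. With an unadjusted p under 0.05 there were 3 of the 5, TNFSF10, FAS and TNFRSF10B. TNFSF10 came nearest. It read 8572 and 7072 at 4 h, 6443 and 7567 at 8 h and 8646 and 9018 at 16 h with both factors, and was lower than with TNF alone in 6 of 6 matched arrays. The change was −0.45 ± 0.095 with an adjusted p of 0.0550 (block-adjusted p = 0.00147), and it was called after quantile normalization (−0.38, adjusted p = 0.0405) and without replicate 1 of TNF 100 ng/ml at 8 h (−0.53, adjusted p = 0.0147) or replicate 1 of the combination at 4 h (−0.50, adjusted p = 0.0471). FAS had a change of −0.41 ± 0.14 (adjusted p = 0.452, block-adjusted p = 0.0394) and LTBR of 0.34 ± 0.15 (adjusted p = 0.660).

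TNFRSF10B, with a mean change of 0.04 ± 0.11 on adding insulin, differed between times. Its signals with TNF and insulin were 764 and 1220.2 at 4 h, 1332 and 1258 at 8 h and 1684 and 1618 at 16 h. It differed from TNF alone by −0.49 (4 h), 0.60 (8 h) and 0.02 (16 h), and neither the F test over times (adjusted p = 0.200, block-adjusted p = 0.0375) nor a single time was called without the block. Without replicate 2 of the combination at 4 h the F test was called and the mean was −0.07 (adjusted p = 0.0344).

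**Figure D4:**
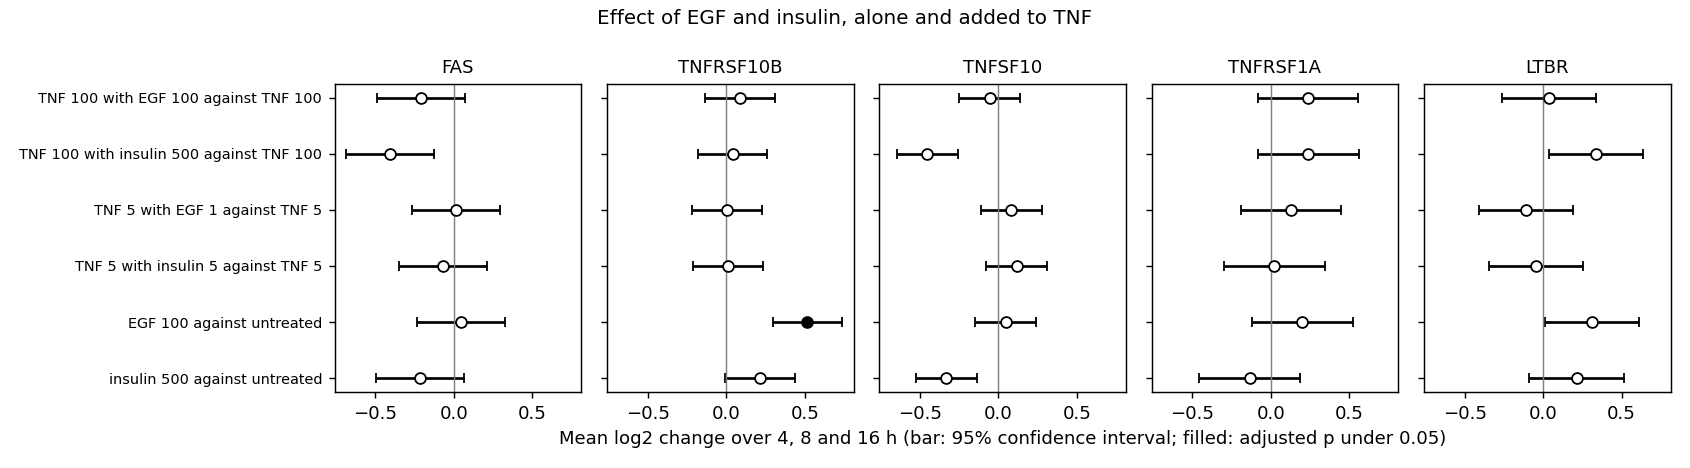
Mean log2 change of the 5 genes for EGF and insulin, added to TNF or given alone; bars are 95% confidence intervals without adjustment over probe sets, and filled points have an adjusted p under 0.05. The single filled point is TNFRSF10B with EGF alone, at 0.52.

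The low-dose mixtures left no gene called. With EGF at 1 ng/ml added to TNF at 5 ng/ml, and with insulin at 5 ng/ml added to TNF at 5 ng/ml, 0% of probe sets were called in either direction by limma, and 560 and 279 of the 13422 had an unadjusted p under 0.05. None of the 5 genes did. The changes of the 5 genes lay between −0.11 for LTBR and 0.13 for TNFRSF1A with EGF. With insulin they lay between −0.07 for FAS and 0.12 for TNFSF10.

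TNF at 100 ng/ml was also compared within cells that received EGF or insulin. On top of EGF, 3 of the 5 genes rose where 5.68% of probe sets were called higher: TNFSF10 by 1.81 ± 0.095 (adjusted p = 1.17e-15), TNFRSF10B by 0.65 ± 0.11 (adjusted p = 0.000111) and FAS by 0.51 ± 0.14 (adjusted p = 0.00104). On top of insulin, 4 of the 5 rose where 8.9% of probe sets were called higher. They were TNFSF10 by 1.79 ± 0.095 (adjusted p = 1.08e-15), TNFRSF10B by 0.90 ± 0.11 (adjusted p = 1.35e-07), TNFRSF1A by 0.65 ± 0.16 (adjusted p = 0.0143) and FAS by 0.57 ± 0.14 (adjusted p = 0.000136). With other probe sets of TNFRSF10B these rises were not called, with adjusted p of 0.648 and 0.0848 on top of EGF and 0.268 and 0.0522 on top of insulin. The rise of FAS was not seen at 4 h, and FAS was higher in 4 of 6 matched arrays in either comparison. At 4 h it read 642 and 669 with TNF and insulin, against 841 and 755 with insulin alone. With TNF and EGF it read 988 and 761, against 1212 and 859 with EGF alone. At 8 h and 16 h the FAS arrays with TNF lay above those without in both settings.

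The TNFRSF1A signals were 1893 and 1792 at 4 h with TNF and insulin, against 1148.5 and 1258 with insulin alone. At 8 h they were 2496 and 3029 with both, against 1460.3 and 1511 with insulin alone, and at 16 h 2291 and 2525 with both, against 1592 and 1918 with insulin alone. The groups did not overlap at any time. The call was lost without the 8 h arrays (0.53, adjusted p = 0.192), without the 9 arrays of replicate 2 at 8 h (0.61, adjusted p = 0.152) and without replicate 2 of the combination at 8 h (0.60, adjusted p = 0.0633).

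Whether EGF or insulin altered the TNF change was tested as an interaction. By limma 0 of the 5 genes were called for EGF, where 0.0298% of probe sets were called, and 0 for insulin, where 0.00745% were. Only TNFRSF10B had an unadjusted p under 0.05 in either interaction. The largest interaction of the 5 genes with EGF was that of TNFRSF10B, −0.43 ± 0.15 (adjusted p = 1.00), with −0.96 at 4 h. For TNFRSF1A the interaction with insulin was 0.37 ± 0.22 (adjusted p = 1.00), so its call with TNF on top of insulin is not shown to differ from its TNF change without insulin.

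Across all treatments, the 36 arrays with TNF read 6159 to 13524 for TNFSF10 (median 8527) and the 18 arrays without TNF read 1415 to 4254 (median 2860), with no overlap. Such a separation held for 0.492% of probe sets. TNFRSF10B showed it at 8 h, with 785 to 1332 in 12 arrays with TNF and 436 to 627 in 6 without, where 2.28% of probe sets did. By the brightest probe sets TNFSF10 alone of the 5 genes showed it at 4 h and at 16 h, where 1.6% and 3.93% of probe sets did. The other 3 FAS probe sets showed it at 16 h, and 204781_s_at at 8 h as well. For TNFSF10, 202687_s_at also separated all arrays. The probe set 214329_x_at did so at 8 h and 16 h, but had 31 of 36 TNF arrays above every TNF-free array over all times and 9 of 12 at 4 h. Both other TNFRSF10B probe sets overlapped at 8 h, with 5 of 12 (209294_x_at) and 8 of 12 (210405_x_at) above. With the brightest probe set of TNFRSF10B, 11 of 12 TNF arrays lay above every TNF-free array at 4 h, and 5 of 12 at 16 h. For FAS the counts were 2 of 12 at 4 h, 10 of 12 at 8 h and 11 of 12 at 16 h. TNFRSF1A had 2 of 12, 11 of 12 and 6 of 12 at the same times, and LTBR 0 of 12, 4 of 12 and 0 of 12.

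The order of the 27 groups was set against the spread of their arrays. TNFSF10 was highest with TNF and EGF at 100 ng/ml each at 16 h (mean signal 12542) and lowest with insulin alone at 16 h (1565). The widest step, 0.65 on the log2 scale, lay between TNF 5 ng/ml at 4 h and untreated cells at 4 h, and 6 of the 26 steps between neighbours exceeded the spread of both groups. FAS was highest with TNF 100 ng/ml at 16 h (2330.4) and lowest with TNF 100 ng/ml and insulin at 4 h (655), with 2 of 26 steps beyond the spread. TNFRSF10B was highest with TNF 100 ng/ml and insulin at 16 h (1651) and lowest in untreated cells at 4 h (374), with 5 of 26 such steps. For TNFRSF1A and LTBR none of the 26 steps exceeded the spread. TNFRSF1A ran from 2784 with TNF and EGF at 8 h to 1142 in untreated cells at 4 h, and LTBR from 1244 with TNF 5 ng/ml at 16 h to 679 in untreated cells at 8 h.

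Over the 27 group means, which share arrays, scaling and times, Pearson's r between the members was highest for FAS and TNFSF10 (0.64) and lowest for TNFSF10 and LTBR (−0.09), while FAS and TNFRSF10B had 0.36. The measured genes most like TNFSF10 over the same means were VNN1 (0.98), the pantetheinase vanin-1, and the chemokines CXCL9 (0.96) and CXCL11 (0.95). Those most like TNFRSF10B were PTPN12, MAFF and LAMB3 (0.93 each), and those most like FAS were the chaperone HYOU1 (0.90), SECTM1 and the kinase JAK2 (0.89 each). For TNFRSF1A they were VPS9D1 (0.78), TNFRSF21 (0.77) and GPX2 (0.76), and for LTBR HAX1 (0.84), SLC3A2 and CEBPG (0.82 each). These are descriptions over group means, with no test.

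Other genes of the pathway were counted in the comparison of TNF at 100 ng/ml and untreated cells, where 18.6% of genes were called and the median change of all genes was −0.09. Of 24 other receptors of the TNF receptor superfamily 11 were measured, 3 rose, 0 fell (also 0 at an unadjusted p under 0.05) and the median change was 0.12. TNFRSF1B, the second TNF receptor, rose by 1.37 ± 0.26 (adjusted p = 0.000947), TNFRSF9 (4-1BB) by 0.94 ± 0.24 (adjusted p = 0.00932) and TNFRSF21 (DR6) by 0.49 ± 0.11 (adjusted p = 0.00345).

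Of 17 other ligands of the family 8 were measured, 2 rose, 0 fell (also 0 at an unadjusted p under 0.05) and the median change was 0.10. LTB, a subunit of the LTBR ligand, rose by 2.68 ± 0.22 (adjusted p = 2.03e-11) and TNF itself by 2.25 ± 0.32 (adjusted p = 2.88e-05). FASLG, the FAS ligand, had a change of 0.62 ± 0.26 and was not called (adjusted p = 0.127); it was chosen after its value was seen.

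Of 27 genes that carry the signal inside the cell 21 were measured, 7 rose, 1 fell and the median change was 0.22. The largest rises were those of TNFAIP3 (A20, a deubiquitinase that restrains NF-kB) by 3.64 ± 0.13, CFLAR (c-FLIP, which blocks caspase-8 at death receptors) by 1.40 ± 0.072, CYLD (a deubiquitinase) by 1.23 ± 0.12 and TRAF1 by 1.05 ± 0.20. These largest rises thus include genes that restrain the pathway, TNFAIP3 and CFLAR. The 1 that fell was FADD, the death receptor adaptor, by 0.65 ± 0.081 on the log2 scale (adjusted p = 1.59e-08), named here after its value was seen. With TNF at 5 ng/ml, where 8.02% of genes were called, 2 of the 11 receptors, 1 of the 8 ligands and 5 of the 21 intracellular genes rose and 0 fell (also 0 lower at an unadjusted p under 0.05). EGF alone and insulin alone gave 0 calls by limma in these 3 lists, where 0.642% and 0.271% of genes were called, and at an unadjusted p under 0.05 there were 4 genes with EGF and 1 with insulin.

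**Figure D5:**
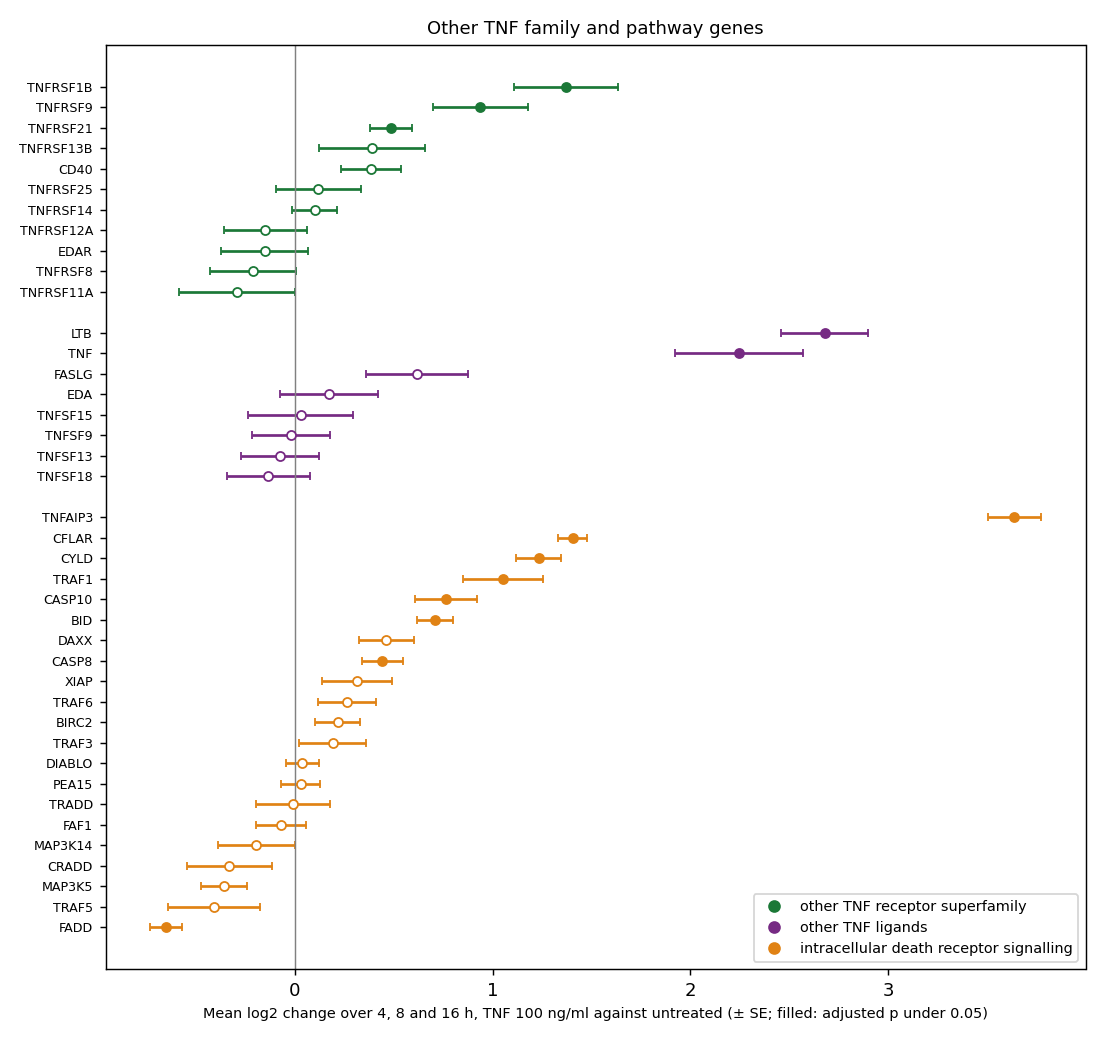
Mean log2 change (± SE) of the other TNF receptors, TNF ligands and intracellular genes, TNF at 100 ng/ml over untreated cells; filled points have an adjusted p under 0.05. TNFAIP3 at 3.64 and LTB at 2.68 lie farthest to the right, and FADD at −0.65 is the only filled point below 0.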

How the data were processed

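RNA of 54 HT-29 cultures was hybridised to Affymetrix human genome arrays. Per the submitters' processing notes MAS5 was used (version not given in the sources used here), and the deposited values are linear signal intensity, never negative; no detection calls were used. Trimmed by 2% on either side, each array averaged 500.2, and no scaling was added. Of 22283 probe sets 68 controls were left out. The platform annotation gave 1 symbol for 19065, several for 1043 and none for 2107. Names of the members and of list genes were matched to 1-symbol probe sets only.

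Signals were taken as log2(signal + 12.49), where 12.49 is the 10th percentile. Probe sets were kept if any group mean reached 7.24, the overall median (a signal of 138.9). limma 3.58.1 in R 4.3.3 fitted 1 mean per group to all 54 arrays (27 residual degrees of freedom, trended variance, median prior degrees of freedom 6.45), with F tests over the contrasts at 3 times and Benjamini-Hochberg adjustment at 0.05. Comparisons over time used both differences from 4 h. P-values measure the spread between the 2 arrays of a group. Comparisons that use the same untreated or TNF arrays are not independent of each other.

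Replicate numbers were checked for pairing through correlated residuals. Every pair of groups exceeded 0.1 at 8 h (36 of 36, 0.286 to 0.576). At 4 h 27 of 36 did, at 16 h 31 of 36 and over all times 218 of 351. The median correlation was 0.428 at 8 h, 0.200 at 4 h, 0.205 at 16 h and 0.154 over all times. Numbers thus paired arrays most clearly at 8 h and more weakly at 4 h and 16 h, and the main tests left this pairing out. The block changed no call of a member for TNF against untreated cells at 8 h, but it changed calls in tests over several times and at 16 h, given beside them. The code was tested on simulated data. Promoter sequences are RefSeq's (GRCh38.p14), found for 4 of the 6 genes. The genes named are the members, the 3 most correlated genes of each, and up to 4 called genes of each list with the largest changes; FASLG and FADD were added after their values were seen. Members, lists and tests were chosen with earlier results of these data known. Alternatives were other pseudocounts, normalizations, filters, variance models, blocks, probe sets and left-out arrays.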

Additional observations from a re-analysis of the deposited data

Results flagged for a closer look

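The TNF difference of 3 genes was not the same at 16 h as at 4 h by the limma test of the interaction between TNF at 100 ng/ml and time, which is why they are listed. For TNFSF10 the log2 difference from untreated cells was larger at 16 h by 1.79 (adjusted p = 7.76e-06). For FAS it was larger by 1.62 (adjusted p = 0.00859). For TNFRSF10B it was −1.28, that is, smaller at 16 h than at 4 h (adjusted p = 0.00805). In this test 2.44% of probe sets were called in either direction. These calls were lost for TNFSF10 with the probe set 214329_x_at (adjusted p = 0.455), for TNFRSF10B with both other probe sets (adjusted p = 0.745 and 0.682), and for FAS with median centring (adjusted p = 0.0775), with only the groups compared (adjusted p = 0.0550) and without replicate 2 of TNF 100 ng/ml at 16 h (adjusted p = 0.0694).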

How the results depend on the processing

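Values here are how many of the 5 genes were called, unless a log2 change is named; the cause of a difference was not tested unless the alternative itself shows it (fewer arrays, fewer probe sets). The 3 calls of TNF 100 ng/ml over untreated cells held under every alternative except with the TNFRSF10B probe set 209294_x_at (adjusted p = 0.0506), and leaving out 1 array at a time kept 3. Quantile normalization gave 1 call for insulin against untreated cells and 1 for insulin added to TNF 100 ng/ml, against 0 each. Median centring gave 0 for EGF and 1 for TNF 5 ng/ml at 8 h and at 16 h, and no filter or no intensity trend gave 1 for TNF 5 ng/ml at 16 h. With only the groups compared, which leaves fewer arrays, the counts were 0 for TNF 100 against 5 ng/ml, for EGF, and for either dose at 8 h, and 1 for TNF 5 ng/ml at 4 h. The replicate number as a block within each time gave 2 for TNF 100 against 5 ng/ml, 1 for insulin, 3 for insulin added to TNF 100 ng/ml and 5 for time in untreated cells. As a block over all times it gave 2 for TNF 100 against 5 ng/ml and 1 for insulin added to TNF 100 ng/ml. Replicate numbers paired arrays most clearly within 8 h, and residual correlations were lower at 4 h and 16 h. With the other probe sets of FAS, 215719_x_at gave 1 for TNF 5 ng/ml at 16 h and 216252_x_at gave 1 for time under TNF. With those of TNFRSF10B, both gave 0 for EGF and 1 for time in untreated cells, time under TNF and TNF 5 ng/ml at 4 h; 209294_x_at also gave 1 for TNF 5 ng/ml over all times and at 8 h and for TNF 100 ng/ml at 4 h, and 210405_x_at gave 1 for TNF 100 ng/ml at 8 h. With those of TNFSF10, both gave 0 for TNF 100 against 5 ng/ml, and 214329_x_at gave 1 for time in untreated cells and for either dose at 4 h and at 8 h. Without the 9 arrays of replicate 2 at 8 h, an alternative chosen after seeing the data, the counts were 1 for either dose at 8 h and for TNF 5 ng/ml at 16 h. Without all 8 h arrays, also chosen afterwards, the count was 1 for time under TNF. Leaving out 1 array at a time gave 0 to 1 for TNF 100 against 5 ng/ml, EGF, and insulin added to TNF 100 ng/ml, 1 to 3 for time under TNF, 1 to 2 for either dose at 8 h, and 1 for TNF 5 ng/ml at 4 h and at 16 h in the runs that lost a call. A log2 change that was called in either fit turned its sign in 3 cases (uncalled changes near 0 also did): TNFRSF10B between 16 h and 4 h under TNF, at −0.13 and −0.52 with its other probe sets, and on adding insulin to TNF, where TNFRSF10B ran from −0.070 to 0.15 over the left-out arrays (−0.070 without replicate 2 of the combination at 4 h).

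Over all 13422 probe sets, the block within each time called over 1.5 times more in 20 of the 20 comparisons that had calls, and over all times in 6. For TNF 100 ng/ml over untreated cells it called 3347 within times and 2642 over all times, against 2194 as reported. Fewer by over 1.5 times were called in 16 comparisons with only the groups compared (1160 for TNF 100 ng/ml) and in 11 with median centring (1456). Median centring also moved the share of higher calls by over 10 percentage points in 8 of 22 comparisons, to 58.6%, against 40.9% as reported, for TNF 100 ng/ml over untreated cells. It shifted the median of all probe sets by 0.16, 0.12 and −0.11 for TNF 100 ng/ml at 4 h and for TNF 5 ng/ml at 4 h and 8 h. Genes below the filter on low signal were not tested, and 2 arrays per group limit the precision of every call.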
